A study of Rattus norvegicus with 8 samples.

Results

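The Bcl2 family and the caspases were examined as 9 genes fixed by symbol. They are the BH3-only gene Bid, the effectors Bak1 and Bax, the anti-apoptotic genes Bcl2 and Bcl2l1, the inflammatory caspase Casp1 and the initiator caspases Casp2, Casp8 and Casp9. A probe was assigned to a gene when its RefSeq accession, without version, belonged to that gene. All 9 genes were found, on 13 of the 41012 probes and among the 36602 genes or named transcripts of the array. After the filter on dim probes 8 of the 9 were tested, among 21677 genes. Casp8 did not pass the filter.

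Bcl2 proteins set whether the outer mitochondrial membrane stays intact. Bax and Bak1 form pores in it, Bcl2 and Bcl2l1 (Bcl-xL) hold them back, and BH3-only proteins such as Bid, which caspase 8 cleaves, push the other way. Cytochrome c that leaves the mitochondrion assembles with Apaf1 and activates caspase 9, whereas caspase 1 acts in inflammasomes and matures interleukin 1 beta. The immature brain uses this machinery heavily during normal development and after hypoxia-ischemia, and Bax is known to decline as the rodent brain matures. Most caspases are made as inactive precursors, so an mRNA level says nothing of their activity.

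Total RNA came from the cerebral cortex of 8 Wistar rats at 8 weeks of age, with 1 array per animal. The 4 HI animals, labelled Rice after the model, had the left carotid artery tied off and cut under ether at 7 days of age and then breathed 8% oxygen for 1 h at 33 °C. The 4 control animals were Wistar rats of the same age without the insult, and for them the labels name no sham surgery. After HI the cortex of the hemisphere opposite the cut artery was used, and in control animals the cortex of that same hemisphere. The question is how cortex away from the lesion differs in the mature animal.

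Values are log2 of the processed spot intensity minus the array's 75th percentile, and are called log2 levels, so 0 is the 75th percentile and 1 unit is a doubling. The array of control 1 stood apart. Its 75th percentile intensity was 234.2, against 436.1 to 510.2 on the other arrays. It lay outside the range of the other 7 arrays for 76.8% of the 21677 genes and for 7 of the 8 members tested, where the next such share of genes was 30.2%, on the array of HI 2. The log2 change of each tested member is therefore also given without control 1. For other genes this was done only in part. The 4 HI arrays shared 1 slide and 1 scan and the 4 control arrays another, and the effects of slide or scan and of group cannot be told apart. In bulk cortex fewer cells of a type and less RNA per cell cannot be told apart either. Markers of neurons (5 of 6 listed), astrocytes (4 of 4), oligodendrocytes (3 of 3) and microglia (6 of 6) were measured, as befits cortex. The summed level of the neuron markers, in units of the array's 75th percentile, was 46.6 to 55.7 on HI arrays. On control arrays it was 37.5 to 58.9, lowest in control 1. The sum adds unlogged signal and was set mostly by Snap25. On each gene's brightest probe, control 1 was the lowest array for Snap25 (4.43) and Gad1 (-1.44). It was the highest for Syt1 (3.52) and Gad2 (1.49), and for Slc17a7 (0.42) it lay between. The summed level of the endothelial markers (2 of 3, without Pecam1) was 6.29 to 9.68 on HI arrays and 3.64 to 7.55 on control arrays, again lowest in control 1. It was set mostly by Cldn5 (1.82 in control 1, the lowest array). Flt1 was highest in control 1 on its brightest probe (-3.19) and lowest there on another (-5.08). The astrocyte marker S100b was lower after HI, with a log2 change of -0.96 (adjusted p = 0.0956), and fell by 1.09 without control 1 (adjusted p = 0.0219). Gad2 of inhibitory neurons (-0.67, adjusted p = 0.158), Mog of myelin (-0.62, adjusted p = 0.351) and Aqp4 of astrocytes (-0.27, adjusted p = 0.523) also lay wholly below control, without passing the threshold. For Aqp4 the nearest arrays all but touched (HI 3 at -1.5463, control 4 at -1.5457). On another Mog probe (-0.13) the groups overlapped with all arrays, but not without control 1. Groups did not overlap for 14.2% of all genes. Changes lay above 0 for Gfap and Slc1a3 of the 4 astrocyte markers and for Snap25, Slc17a7 and Gad1 of the 5 neuron markers. Mbp of the 3 oligodendrocyte markers was also above 0. Without control 1 the counts above 0 were 2, 2 and 0.

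With all 8 arrays no member passed an adjusted p of 0.05 (limma, Benjamini-Hochberg over 21677 genes), a threshold that 0.918% of all genes passed. At an unadjusted p under 0.05 it was 1 of 8, Casp2, against 10.6% of all genes. Casp2 had the clearest difference: it was 1.42-fold higher after HI (95% confidence interval 1.14 to 1.78, n = 4 each), and every HI animal lay above every control. Without control 1, Casp2 rose 1.30-fold and passed the adjusted threshold, the only member to do so, where 3.64% of 21797 genes passed. Bcl2 was the next member in that fit, at 0.666-fold of control with an adjusted p of 0.0756. The 8 members had a median log2 change of 0.19, with 6 above 0 and 2 below, beside a median of -0.03 over all genes. Without control 1 the medians were -0.00 for the members and 0.00 for all genes, with 4 members on either side of 0.

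**Figure D1:**
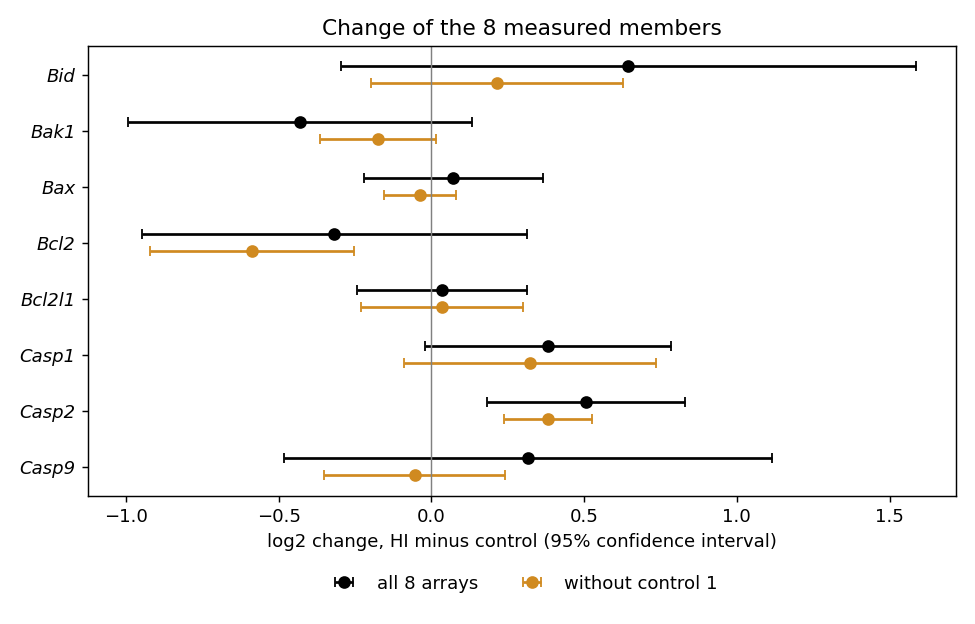
Log2 change, HI minus control, of the 8 members tested (points) with 95% confidence intervals (bars), from all 8 arrays in black and without control 1 in orange. With all arrays the Casp2 interval, 0.18 to 0.83, is the only one clear of 0; without control 1 those of Casp2 and Bcl2 are, and the changes of Bid, Bak1 and Casp9 lie nearer 0.

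Bid, the BH3-only protein that links death receptors to the mitochondrion, had log2 levels of -3.61, -2.92, -3.43 and -3.48 in HI 1 to 4, against -5.30, -3.59, -3.40 and -3.73 in control 1 to 4. The groups overlapped. HI 2 was the highest array, and control 1 was the lowest and the one array where the probe was not well above background. Bid had a log2 change of 0.65 (SE 0.41, 95% confidence interval -0.30 to 1.59, adjusted p = 0.578) and 0.21 without control 1 (SE 0.17, adjusted p = 0.522). After normexp background correction with 75th percentile scaling it was 0.04. For this dim probe the size of the difference thus rested on control 1 and on the background correction.

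Bax, one of the pore-forming effectors, was read by a probe with 10 spots on each array, of which 1 outlier spot was left out in HI 1. Its log2 level was 0.56, 0.63, 0.57 and 0.58 in HI 1 to 4, against 0.19, 0.62, 0.65 and 0.61 in control 1 to 4. The SD over the spots of an array was 0.02 to 0.03 on HI arrays and 0.03 to 0.08 on control arrays. The spots of control 1 spanned 0.08 to 0.28, and the other 7 animals lay between 0.56 and 0.65. Bax had a log2 change of 0.07 (SE 0.13, 95% confidence interval -0.22 to 0.36, adjusted p = 0.764). Without control 1 it was -0.04 (SE 0.05, interval -0.16 to 0.08), and changes of Bax beyond 0.86-fold to 1.29-fold lay outside the interval with all arrays.

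Bak1, the other effector, had log2 levels of 0.46, 0.32, 0.47 and 0.48 in HI 1 to 4, against 1.63, 0.57, 0.50 and 0.75 in control 1 to 4. All HI animals were below all controls, although HI 4 and control 3 were only 0.02 apart. Among the members the groups did not overlap for Bak1 and Casp2, against 14.2% of all genes tested, with 8.24% lower and 5.97% higher after HI. Bak1 had a log2 change of -0.43 (SE 0.24, interval -0.99 to 0.13, adjusted p = 0.558). Control 1 was the highest array and set most of that size: without it the change was -0.17 (SE 0.08, interval -0.36 to 0.02, adjusted p = 0.279), still with no overlap between the groups. In that comparison Bak1 and Bcl2 lay wholly below control and Casp2 wholly above, where 21.8% of all genes had no overlap (11.3% lower and 10.5% higher after HI).

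**Figure D2:**
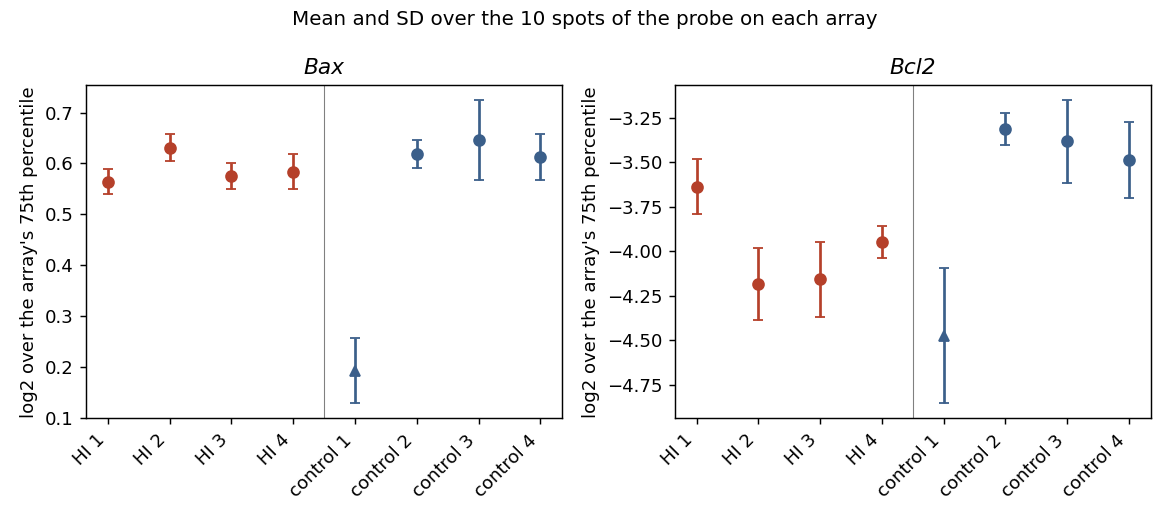
Mean (points) and SD (bars) over the 10 spots of the Bax and Bcl2 probes on each array, in log2 units above the 75th percentile of the array, HI arrays in red and control arrays in blue (triangle: control 1). Bax is level on 7 arrays and low in control 1; Bcl2 is lower on all 4 HI arrays than in control 2, 3 and 4, and lowest in control 1.

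Bcl2, the founding anti-apoptotic member, had log2 levels of -3.64, -4.18, -4.16 and -3.95 in HI 1 to 4, against -4.47, -3.31, -3.38 and -3.49 in control 1 to 4, again as means of 10 spots, less 1 outlier spot in HI 4. The 4 HI animals were all below controls 2, 3 and 4, and control 1 was below them all. In control 1 only 2 of the 10 spots were well above background, where at least 9 were on every other array, so that array gives little more than an upper limit for Bcl2. The SD over spots was 0.09 to 0.21 on HI arrays, 0.09 to 0.23 in controls 2 to 4 and 0.38 in control 1. With all arrays the log2 change was -0.32 (SE 0.27, interval -0.95 to 0.31, adjusted p = 0.596). Without control 1 it was -0.59 (SE 0.14, interval -0.92 to -0.25, unadjusted p = 0.00436, adjusted p = 0.0756), and HI 1 and control 4, the closest pair, were 0.15 apart. It did not pass the adjusted threshold in any fit. The probe is dim, and the change ranged from -0.54 to -0.08 over the other settings that kept it, with the smallest size under normexp correction with quantile scaling.

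Bcl2l1, which encodes Bcl-xL, the main anti-apoptotic relative of adult neurons, was read by 4 probes. The brightest one, designed on transcript NM_001033670, had log2 levels of 2.19, 1.79, 2.11 and 2.05 in HI 1 to 4, against 2.00, 2.01, 1.87 and 2.13 in control 1 to 4. The groups overlapped over almost their whole range, and here control 1 sat inside it. Its log2 change was 0.03 with and without control 1 (SE 0.12, interval -0.24 to 0.31, adjusted p = 0.883; SE 0.11 without it). On this probe Bcl2l1 changes outside 0.84-fold to 1.24-fold lay beyond the interval.

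The other 3 Bcl2l1 probes were designed on NM_031535. The brighter of the 2 that passed the filter averaged -1.60 ± 0.19 after HI and -1.79 ± 0.34 in controls (SD, n = 4 each), and the dimmer one -3.11 ± 0.10 and -3.06 ± 0.32. Their log2 changes of 0.20 and -0.05 had unadjusted p of 0.332 and 0.772. Control 1 was the lowest array on the brighter of these probes and the highest on the dimmer one, so it did not deviate in a constant direction even within a gene. The remaining probe has 10 spots per array, of which at most 1 was well above background, at -7.28 to -7.00 on HI arrays and -7.43 to -6.21 on control arrays.

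Casp2 encodes caspase 2, an initiator caspase with roles in stress-induced death and in the response to DNA damage. It had log2 levels of 1.88, 1.94, 1.81 and 1.88 in HI 1 to 4, against 1.00, 1.42, 1.52 and 1.54 in control 1 to 4. The HI animals were tightly grouped (SD 0.05), and the lowest of them was 0.27 above the highest control. Casp2 had a log2 change of 0.51 (SE 0.14, interval 0.18 to 0.83, unadjusted p = 0.00693, adjusted p = 0.226). Without control 1 the SD of the remaining controls was 0.07 (n = 3), and the change was 0.38 (SE 0.06, interval 0.24 to 0.53, adjusted p = 0.0224). The probe has 1 spot per array, was well above background on all 8 and saturated on none, and the change was 0.49 to 0.58 under the other background corrections and scalings. Leaving out another array in place of control 1 gave 0.49 to 0.56, with adjusted p of 0.293 to 0.495.

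Casp9, the caspase of the apoptosome, was read by 2 probes that gave nearly the same result. On the brighter one it had log2 levels of 0.34, -0.06, 0.31 and 0.14 in HI 1 to 4, against -1.25, 0.05, 0.29 and 0.37 in control 1 to 4. On the dimmer one HI 1 to 4 were at -2.16, -2.53, -2.28 and -2.23, against -3.69, -2.45, -2.17 and -2.11 in control 1 to 4. Both probes put control 1 lowest, by over 1 log2 unit, and HI 2 lowest among HI animals. The log2 change of the brighter probe was 0.32 (SE 0.35, interval -0.48 to 1.12, adjusted p = 0.639). Without control 1 it turned to -0.06 (SE 0.13, interval -0.35 to 0.24, adjusted p = 0.828).

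Casp8, the caspase of death receptors and the one that cleaves Bid, was at the limit of the array. It was well above background in HI 2 alone, at -4.81, and lay between -7.16 and -6.19 on the other HI arrays and between -7.00 and -6.26 on control arrays. Values not well above background cannot be put in a reliable order, so no change is given.

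Casp1, the inflammasome caspase, in brain best known from microglia, had log2 levels of -2.59, -1.91, -2.46 and -2.45 in HI 1 to 4, against -2.91, -2.49, -2.78 and -2.76 in control 1 to 4. The HI values were mostly higher, but HI 1 lay below control 2 and the groups overlapped. Casp1 had a log2 change of 0.38 (SE 0.17, interval -0.02 to 0.78, unadjusted p = 0.0596, adjusted p = 0.497). It was 0.32 without control 1 (SE 0.17, adjusted p = 0.348), and 0.09 after normexp correction with 75th percentile scaling. Without HI 2, the highest array, it was 0.23, and without both arrays 0.17. The 6 microglia and macrophage markers (Aif1, Csf1r, Cx3cr1, Itgam, C1qa and Cd68) had a summed level, in units of the array's 75th percentile, of 16.4 to 18.4 on HI arrays and 15.2 to 19.5 on control arrays. Control 1 had the highest sum, and controls 2 to 4 (15.8, 16.1 and 15.2) lay below every HI array. The sum was set mostly by C1qa and Aif1, whose brightest probes were highest in control 1 (3.47 and 2.83). Csf1r (-0.62) and Itgam (-3.17) were lowest there. Without control 1 the changes of 4 markers lay above 0 and those of 2, Csf1r (-0.04) and Cx3cr1 (-0.11), below. None of the 6 passed the adjusted threshold, and 1 of them, Itgam, was higher after HI at an unadjusted p under 0.05 (log2 change 0.80, SE 0.25, adjusted p = 0.275). A second, dimmer C1qa probe was also higher, by 0.32, with no overlap between the groups. Its unadjusted p was 0.0139 and its adjusted p 0.313, with limma on every probe alone. Without control 1, Itgam and C1qa were higher at an unadjusted p under 0.05, as 4499 of 21797 genes were in either direction. Neither overlapped there, where 21.8% of all genes did not.

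**Figure D3:**
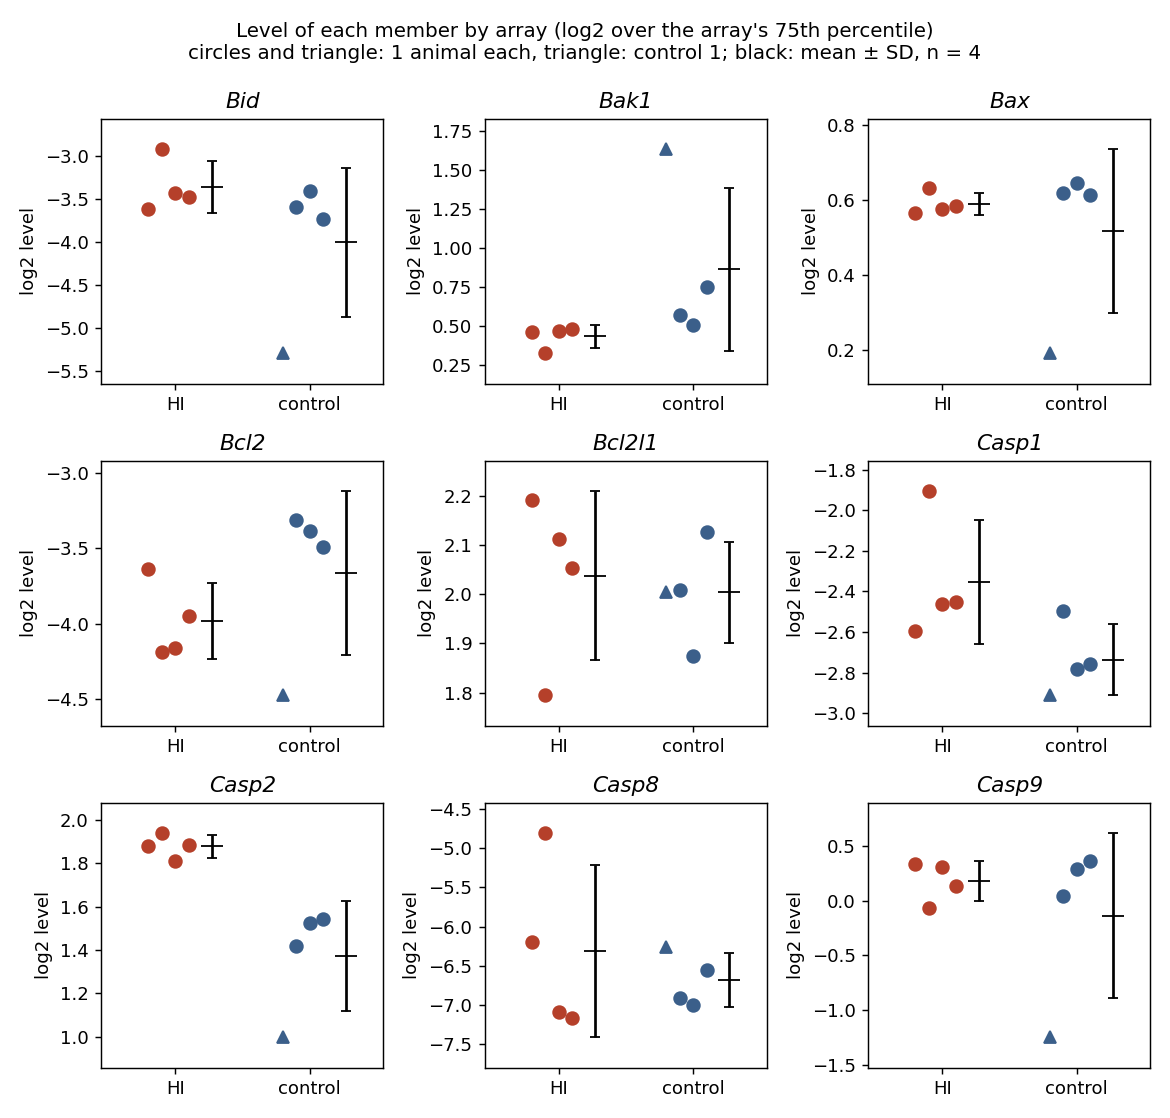
Level of each member on each array, in log2 units above the 75th percentile of the array, HI left and control right, with the mean and SD of the 4 arrays in black; Bcl2l1 and Casp9 are shown by their brightest probe, and the triangle is control 1. Casp2 has the widest gap between the groups, of 0.27, and Bak1 one of 0.02; control 1 lies below all other arrays for Bid, Bax, Bcl2, Casp1, Casp2 and Casp9 and above them for Bak1. Casp8 is not well above background on 7 of the 8 arrays.

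HI 2 was the highest array for Bid, Casp1, Casp2 and Casp8 and the lowest for Bak1 and Bcl2l1. It also had the most signal from the 3 meningeal markers (Col1a2, Slc6a13 and Dcn, all measured), whose summed level was 47.5 there and 4.27 to 5.87 on the other HI arrays, against 3.08 to 4.05 on control arrays. Choroid plexus markers (Ttr, Kcnj13 and Folr1) ran from 1.30 to 263.2 on HI arrays and from 0.59 to 203.9 on control arrays. Red blood cell markers (Hbb, Alas2 and Slc4a1) summed to 4.78 to 11.7 on HI arrays, against 3.43 to 4.49 on control arrays. Of the 5 leukocyte markers, S100a8 and S100a9 had probes here and neither passed the filter. The part of these cells in the members' values was not tested. Without control 1 and HI 2 together the log2 change was 0.36 for Casp2 (SE 0.06, adjusted p = 0.0419), 0.07 for Bid and 0.17 for Casp1.

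The difference between 2 members on the same array does not depend on how the array is scaled by a single number, and only its change between groups can be read, since probes differ in brightness. Bax minus Bcl2 was 4.20, 4.82, 4.73 and 4.53 in HI 1 to 4, against 4.67, 3.93, 4.03 and 4.10 in control 1 to 4. The mean difference of this effector and its inhibitor was 0.39 larger after HI, and 0.55 larger without control 1, where the HI values all lay above those of the 3 controls. Without control 1 this is nearly the change of the dim Bcl2 probe alone, which was -0.59, beside -0.04 for Bax. Bax minus Bcl2l1 had a group difference, HI minus control, of 0.04 (-0.07 without control 1). For Bak1 minus Bcl2l1 it was -0.47 (-0.21), for Bid minus Bcl2l1 0.61 (0.18) and for Casp9 minus Bcl2l1 0.28 (-0.09). Over the other settings Bax minus Bcl2 ran from 0.15 to 0.55 and Bax minus Bcl2l1 from -0.17 to 0.12. The first was thus the larger throughout, by an amount that depended on the setting. Bid minus Bcl2l1 ran from -0.05 to 0.85. In control 1 the Bcl2 and Bid probes were not well above background. These differences were not tested, as they are built from members already tested one by one.

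Of 59 other genes of cell death, listed by role, 43 had a probe here and 34 passed the filter. None passed the adjusted threshold, where 0.918% of all genes did. At an unadjusted p under 0.05 it was 3 of 34, against 10.6% of all genes: Birc2 was higher, and Bmf and Endog were lower. The median log2 change of the 34 was -0.06, with 16 above 0 and 18 below, beside the -0.03 of all genes. Without control 1 the median was 0.02, with 19 above 0 and 15 below, and Birc2 and Endog passed the adjusted threshold, where 3.64% of all genes did. Birc2, Bmf and Endog were also the 3 whose groups did not overlap, against 14.2% of all genes.

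Birc2 encodes cIAP1, an inhibitor of apoptosis that adds ubiquitin to Ripk1 downstream of TNF receptors. It had log2 levels of -1.61, -1.64, -1.70 and -1.61 in HI 1 to 4, against -2.97, -2.19, -2.30 and -2.21 in control 1 to 4. The lowest HI animal was 0.49 above the highest control. The log2 change was 0.78 (SE 0.18, adjusted p = 0.146), and without control 1 it rose by 0.59 with an adjusted p of 0.00306 (SE 0.06), the smallest p of the members and listed genes in that fit. With all arrays and normexp correction it was 0.48 (quantile scaling) and 0.36 (75th percentile scaling). Its relative Birc3 (cIAP2) had a log2 change of 0.50 (SE 0.27, adjusted p = 0.55), with overlapping groups, and -0.15 after normexp correction with 75th percentile scaling.

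Endog encodes endonuclease G, a mitochondrial nuclease that can move to the nucleus in dying cells. It had log2 levels of 1.56, 1.46, 1.65 and 1.51 in HI 1 to 4, against 1.90, 1.92, 1.90 and 1.97 in control 1 to 4. Here control 1 lay among the other controls, and all HI animals lay below them, with a gap of 0.25 between the nearest pair. The log2 change was -0.38 with all arrays (SE 0.09, adjusted p = 0.159), and without control 1 it fell by 0.39 (SE 0.06, adjusted p = 0.0274).

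Bmf encodes a BH3-only protein tied to the cytoskeleton. It had log2 levels of -4.69, -4.42, -4.45 and -4.22 in HI 1 to 4, against -3.29, -4.03, -3.73 and -3.60 in control 1 to 4, near the dim end of the array. The log2 change was -0.78 (SE 0.18, adjusted p = 0.13) and -0.66 without control 1 (SE 0.14, adjusted p = 0.0552). After normexp correction it was -0.17 (quantile scaling) and -0.38 (75th percentile scaling). Bnip3, a BH3-only protein of mitophagy that hypoxia induces, had a log2 change of 0.24 (SE 0.17, adjusted p = 0.587).

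**Figure D4:**
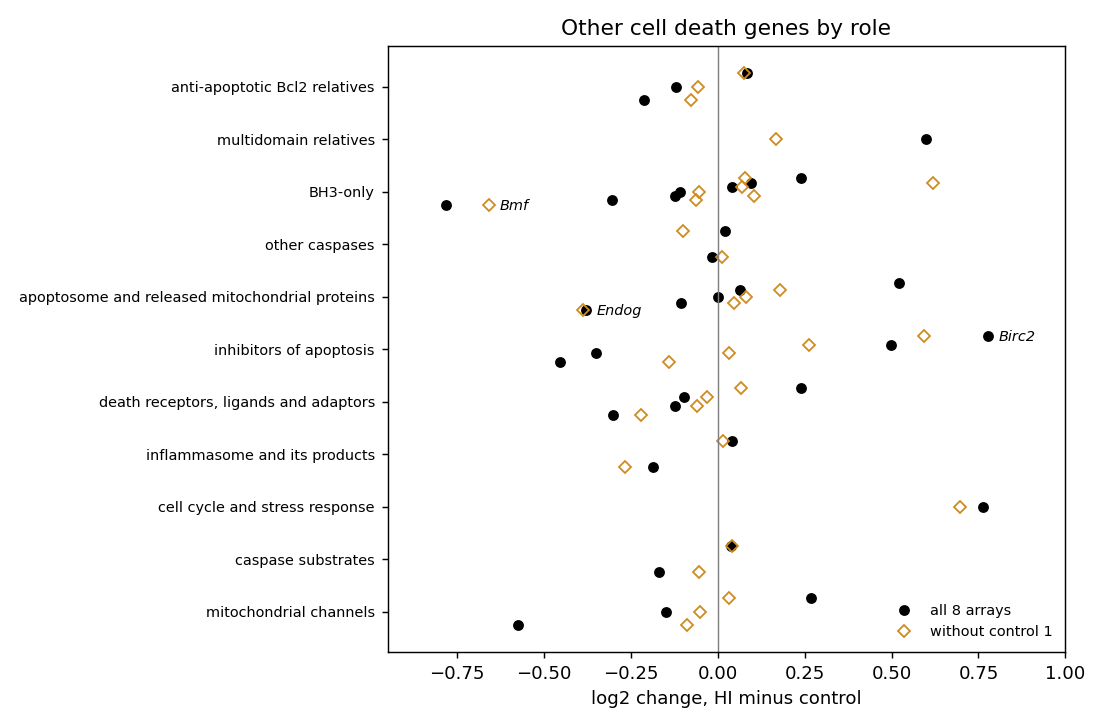
Log2 change, HI minus control, of the 34 measured cell death genes described here that are not members, in 11 rows by role. Black circles are from all 8 arrays and open orange diamonds without control 1, and points of a row are spread vertically. Cycs has no diamond, since another probe represented it without control 1. Birc2 (0.78), Bmf (-0.78) and Endog (-0.38) are labelled; most other genes move toward 0 when control 1 is left out.

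Casp6, a caspase that cuts nuclear lamins, had a log2 change of 0.02 (SE 0.17, interval -0.36 to 0.40, adjusted p = 0.95) and -0.10 without control 1 (SE 0.12), with overlapping groups. Casp4, an inflammatory caspase like Casp1, had a log2 change of -0.02 (SE 0.13). The anti-apoptotic relatives Bcl2l2 (Bcl-w) and Bcl2l10 had log2 changes of -0.21 (SE 0.15) and -0.12 (SE 0.12), and Bok, a relative of Bax and Bak1, had a log2 change of 0.60 (SE 0.40; 0.17 without control 1). Cycs, the cytochrome c that starts the apoptosome, had a log2 change of 0.52 (SE 0.32) on its brightest probe, with control 4 lowest (3.42). On other probes of similar brightness the change was 0.26 and -0.004, and control 4 was the highest control (4.73 and 4.50). Without control 1 the first of these other probes represented it, at 0.13. None of these passed the adjusted threshold.

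Upstream and downstream genes were alike in this respect. The death receptors Tnfrsf1a and Fas had log2 changes of -0.12 (SE 0.16) and 0.24 (SE 0.33). Pycard, the inflammasome adaptor that recruits caspase 1, had a log2 change of -0.19 (SE 0.16), and Il18, a caspase 1 product once cleaved, 0.04 (SE 0.17). Cdkn1a, which encodes the cell cycle inhibitor p21, had a log2 change of 0.76 (SE 0.35, unadjusted p = 0.0587), with log2 levels of -0.12, -1.10, 0.52 and -0.09 in HI 1 to 4, against -1.16, -0.51, -1.38 and -0.80 in control 1 to 4. HI 2 alone of the HI animals lay among the controls. The caspase substrates Dffa and Parp1 had log2 changes of -0.17 (SE 0.14) and 0.04 (SE 0.09), and the mitochondrial channels Vdac1 and Vdac3 -0.58 (SE 0.43; -0.09 without control 1) and -0.15 (SE 0.12). On the dimmer Vdac1 probes the change was -0.19 and -0.11. There the HI arrays lay below controls 2 to 4 but not below control 1. Without control 1, 11.3% of all genes lay wholly lower after HI. Adjusted p of these 9 genes ran from 0.496 to 0.895.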

How the data were processed

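Cy3-labelled RNA of 8 rat cortices (4 HI, 4 control) was measured on 1-colour Agilent arrays, 1 for each animal, per the labels. The authors made the scanner files with Feature Extraction 9.5.3.1 of Agilent, per the file headers. The deposited files hold background-subtracted intensity per spot, raw median spot and local background signals, and flags. The deposited series table holds log2 values, whose columns correlated at about 0.9998 or higher with the scanner values scaled as below and centred on each probe's median. It served as an alternative. In that table control 1 had a median of 0.48, and the other columns had medians of -0.05 to 0.04. The other alternatives were normexp correction (offset 50), quantile and median scaling, other filters and probe rules, an intensity trend, array weights, the replicate number as a block, and leaving out arrays.

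Intensity was scaled to each array's 75th percentile over non-control spots and taken to log2. Outlier spots were left out and spots of a probe averaged. The filter kept the 24875 probes that were well above background, on a share of spots over 0.5, on every array of HI or of control animals. A gene was represented by its brightest kept probe, giving 21677 genes. Names came from RefSeq accessions of the GRCr8 assembly (10735 of 41012 probes had a symbol). The array was designed on an older assembly, and coordinates were not used here.

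Groups were compared with limma (3.58.1, R 4.3.3) by lmFit and eBayes, adjusted by Benjamini-Hochberg over all genes. Log2 changes are HI minus control with limma's standard error. The fit was tested on simulated data. The members and gene lists were chosen with earlier results of these data known. Some cell death genes are not reported here. Genes named beside the members are, for each role, up to 2 with the smallest unadjusted p. The number of arrays limits the precision. Neither slide nor scan could enter the fit as a block, since each holds 1 group.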

Additional observations from a re-analysis of the deposited data

Results flagged for a closer look

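Among 78 groups of 4 values looked at, 11 had a lowest or highest array far from the other 3 (Dixon's ratio above its 95% critical value), where chance flags about 1 in 20. In 8 of the 11 that array was control 1. For the members these were Bax (0.19, others 0.61 to 0.65), Bcl2 (-4.47, others -3.49 to -3.31), a Bcl2l1 probe (-2.30, others -1.64 to -1.61) and Bak1 minus Bcl2l1 (-0.37, others -1.44 to -1.37). For other genes they were Bcl2l2 (3.14, others 2.57 to 2.63), Bok (-1.05, others 0.49 to 0.80), Birc2 (-2.97, others -2.30 to -2.19) and Vdac1 (5.78, others 3.75 to 3.98). On the dimmer Vdac1 probes control 1 was instead the lowest array (2.53 and 1.90). In the other 3 it was HI 2, for Bak1 (0.32, others 0.46 to 0.48), Casp4 (-1.72, others -2.15 to -2.09) and Tnfrsf1a (1.19, others 0.63 to 0.73). The part of array quality or tissue composition in these values was not tested.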

How the results depend on the processing

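The count of genes past the adjusted threshold, 199, was 1327 with array weights, 69 with the replicate block, 706 without control 1 and HI 2 together (an alternative chosen after seeing the data) and 116 to 793 when arrays were left out, with 793 without control 1. The count of members, 0, was 1 with array weights and without control 1, with or without HI 2, each time Casp2 (0 to 1 over left-out arrays). The count of listed cell death genes, 0, was 4 with array weights (Bik, Birc2, Bmf and Endog) and 3 without control 1 and HI 2 (Bik, Birc2 and Endog; 0 to 3 over left-out arrays). The causes were not tested. Same-numbered HI and control arrays correlated at -0.16 to 0.03 in their deviations from the group mean, and differently numbered ones at -0.14 to 0.15. So few arrays cannot settle whether the numbers pair animals. The replicate block left the counts of members and listed genes at 0.

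These signs turned. With array weights Bax was -0.044, Casp6 -0.11, Fas -0.12 and Il18 -0.058. With normexp and 75th percentile scaling Casp6 was -0.091, Birc3 -0.15, Fas -0.088 and Il18 -0.026. With normexp and quantile scaling Casp4 was 0.014 and Vdac3 0.0048. Casp4 was 0.059 with median scaling, 0.035 with quantile scaling and 0.0015 in the authors' table. Without control 1 and HI 2 Bax was -0.052, Casp6 -0.12, Fas -0.22 and Il18 -0.10. Over left-out arrays Bax ran from -0.052 to 0.11, Bcl2l1 from -0.017 to 0.12, Casp9 from -0.055 to 0.48, Casp6 from -0.12 to 0.13, Casp4 from -0.12 to 0.028, Fas from -0.22 to 0.40 and Il18 from -0.10 to 0.13. Of the other alternative values for single genes, 541 kept their direction and side of the threshold and 10 newly passed it, for Casp2, Birc2 and Endog with array weights and without control 1, with or without HI 2, and for Bmf with array weights. Differences between members, which have no threshold, turned sign in 7 of 75 alternative values.

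Without a filter on dim probes the median change of all genes was -0.17. Requiring every array well above background removed Bid and Bcl2, whose signal over background was low in control 1.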

Other observations

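Bik, a BH3-only gene of the list that the naming rule does not reach and that was picked after its values were seen, had log2 levels of -4.39, -4.06, -4.39 and -4.58 in HI 1 to 4, against -2.88, -4.85, -5.00 and -5.07 in control 1 to 4. With all arrays its log2 change was 0.10, since control 1 lay above every HI animal. Without control 1 it was 0.62 (adjusted p = 0.0508), with every HI animal above the 3 controls.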
